A study of Sus scrofa with 6 samples.

Results

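The route of glucose through the heart muscle cell was followed in ventricular myocardium with 41 genes that encode glucose transporters, the enzymes of glycolysis, lactate transporters and the enzymes and regulators of glycogen turnover. The genes form a list in pathway order, which was drawn up by function with earlier results of these data known. Of the 41, 33 were found by their symbol among the 13288 genes of the table, 3 more (PKM, PGAM1 and LDHA) by their gene identifier, and 3 entries without a symbol by their position on the pig genome build Sscrofa11.1 (SLC2A3, BSG and a second entry for LDHB). This gave 39 entries for 38 genes, while SLC2A1, PFKFB1 and FBP2 were not analysed here. Counts are given for the 33 entries found by symbol, and those with the 6 others stand beside them.

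RNA came from 6 male Tibetan minipigs, 3 in the sham group and 3 in the descending aortic constriction (DAC) group, and ventricular tissue was taken 12 weeks after surgery. In the DAC group, sutures over gauze narrowed the descending aorta, which puts the left ventricle under a lasting pressure load, and minipigs of the sham group had the chest opened without a constriction. No transgene or drug separated the groups, and the age of the minipigs was not given in the sources used here. Each group started with 5 minipigs, of which 1 was later left out for an unstable heart rate, and the methods do not say which of the others were sequenced or which ventricle was sampled. The labels describe the samples of a group as independent, and their replicate numbers are 1 to 3 in the sham and 4 to 6 in the DAC group.

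Glucose enters the cardiomyocyte through facilitative transporters, of which GLUT4, the product of SLC2A4, is moved to the cell surface by insulin and by contraction. Hexokinase traps it as glucose 6-phosphate, which is then either broken down to pyruvate and lactate by glycolysis or stored as glycogen through UDP-glucose. The adult heart takes most of its energy from fatty acids, and a greater use of glucose relative to fatty acids has long been described in hearts under pressure load.

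Levels are FPKM, fragment numbers scaled by transcript length and by all mapped fragments, as deposited by the authors. Differences are in mean log2(FPKM + 1), DAC minus sham, on a scale that understates the change of genes with low values. They were tested by limma over 11029 genes, those that reached 1 FPKM in 3 or more samples. A differentially expressed gene (DEG) is one with an unadjusted P under 0.05, the threshold taken from the study's methods, and is called upregulated or downregulated by the sign of its difference. Beside most differences stands the P after Benjamini-Hochberg adjustment across the whole table. No gene named below passes 0.05 after it, so each DEG is a call at the unadjusted threshold alone. By limma, 939 genes (8.51%) were DEGs, 358 upregulated (3.25%) and 581 downregulated (5.27%), and none had an adjusted P under 0.05, the smallest being 0.106. When each gene's variance was estimated on its own, 889 genes were DEGs and again none had an adjusted P under that value. With 3 minipigs per group, an exact permutation test of a single gene cannot give a two-sided P under 0.10.

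Summed over all genes, the samples held 281377 to 308771 FPKM. Mitochondrially encoded genes took 24.0% to 25.3% of it in the sham group and 27.1% to 32.8% in the DAC group, with DAC replicate 5 the highest. The part of this shift in the results was not tested by itself, and a fit without these genes is given beside the counts. The cardiomyocyte markers for which the table had entries (9 of 12) were high throughout, with a summed level of 14431 to 15163 FPKM in the sham and 13689 to 16729 FPKM in the DAC group. Of these, NPPB, the gene of the heart failure marker BNP, was upregulated from 34.3 to 93.5 FPKM (difference 1.55, limma adjusted P = 0.482), and RYR2, the calcium release channel, was downregulated from 366 to 274 FPKM (difference -0.41, limma adjusted P = 0.585). All 7 fibroblast markers were measured. LUM, POSTN, COL1A2, COL3A1 and COL1A1 were upregulated, 5 of the 7 (71.4%, beside 3.25% of all genes). DCN and PDGFRA were not called, with differences of -0.012 and 0.24 (limma adjusted P = 0.992 and 0.640). The summed level of the 7 was 476 to 550 FPKM in sham and 683 to 772 FPKM in DAC minipigs. In such bulk samples fewer cells of a type and less RNA per cell cannot be told apart. The part of the higher summed level of these fibroblast markers in the lower levels below was not tested.

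The other marker lists overlapped between the groups in their summed levels. The 5 endothelial genes had 98.5 to 141 FPKM in the sham and 95.7 to 135 FPKM in the DAC group, with KDR upregulated and VWF downregulated. Smooth muscle genes (4 of 4) had 63.0 to 90.8 and 85.5 to 102 FPKM, with CNN1 upregulated, and leukocyte genes (5 of 5) had 39.2 to 41.6 and 32.6 to 45.0 FPKM, with CD163 downregulated. Red cell genes (2 of 4) had 11.2 to 38.5 and 5.86 to 38.2 FPKM, and their ALAS2 was listed at 0 in DAC replicate 5. Adipocyte genes (2 of 4) had 4.64 to 12.2 and 9.78 to 19.9 FPKM, and ACTA1 and CKM, the skeletal muscle genes found (2 of 5), which cardiac muscle also expresses, had 2249 to 2713 and 1841 to 2822 FPKM. Of the atrial genes only MYL4 was found (1 of 3), at 1.08 to 3.79 and 0.780 to 17.6 FPKM.

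Transcripts of the glucose route lay lower in DAC myocardium more often than higher, with SLC2A4, GPI, PFKM, TPI1, ENO3, GYS1 and PYGB downregulated and HK2 and PPP1R3A upregulated. Of the 33 entries found by symbol, 31 passed the filter on low values, and PFKFB3 and SLC16A3 did not. Among the 31, 7 were downregulated DEGs (22.6%, beside 5.27% of all genes tested) and 2 were upregulated DEGs (6.45%, beside 3.25%), while 22 did not pass the test. The mean was lower in DAC for 23 of the 31, beside 53.4% of all genes, and all DAC samples lay below all sham samples for 7 of them (8.91% of all genes) and above them for 2 (6.01% of all genes). The median difference was -0.16 over these genes and -0.016 over all genes tested. With the 6 other entries, 37 were tested, the DEGs were the same 7 and 2, 26 means were lower and 11 higher, and the median was again -0.16.

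The split between directions moved with the scaling of the samples. The 31 entries gave 5 downregulated and 3 upregulated DEGs after median scaling and likewise with the mitochondrially encoded genes left out, 6 and 3 after quantile normalization, and 8 and 1 with each column scaled to one common sum (TPM). Of all 11029 genes tested, 479 were downregulated and 429 upregulated after median scaling, 476 and 416 after quantile normalization, and 739 and 233 on the TPM scale. Without the mitochondrially encoded genes, 407 of 11016 were downregulated and 500 upregulated. Over all genes, 61.9% of the DEGs were downregulated as deposited, 52.8% after median scaling, 44.9% without the mitochondrially encoded genes and 76.0% on the TPM scale. TPI1, PYGB and PPP1R3A were DEGs in the same direction under all 16 alternatives tried, including each sample left out.

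**Figure D1:**
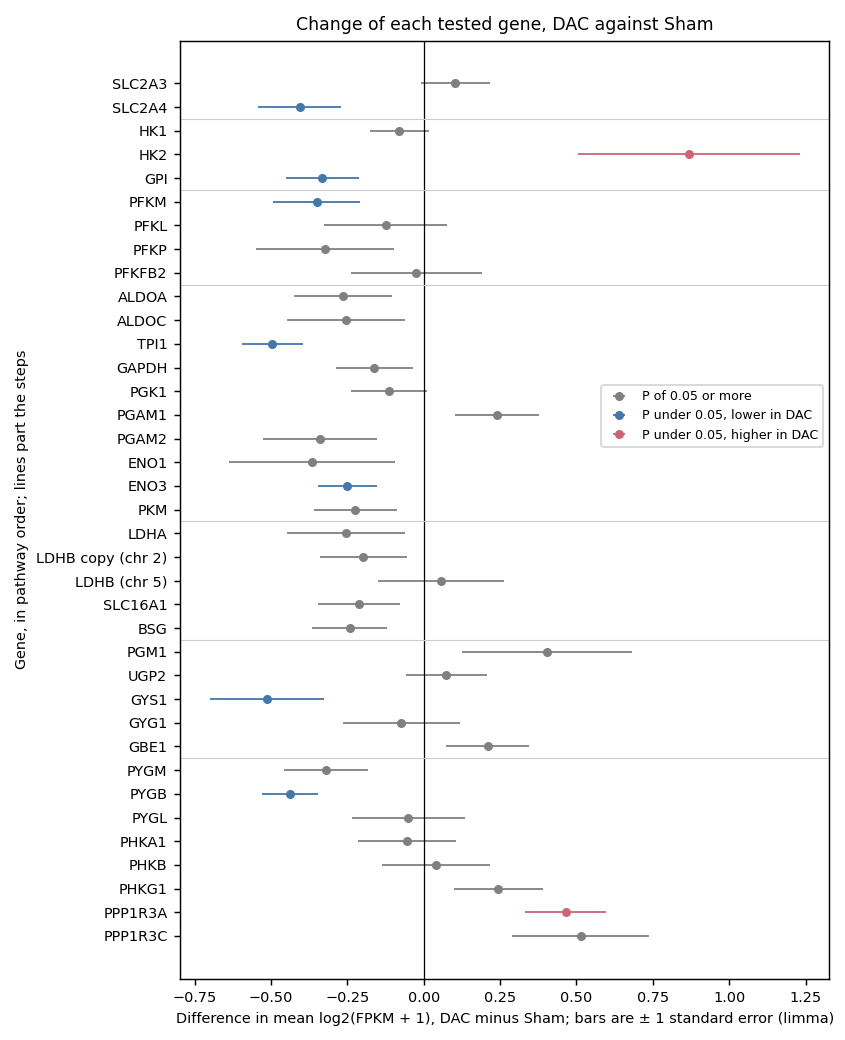
Difference in mean log2(FPKM + 1), DAC minus sham, for the 37 tested entries in pathway order (points, with bars of 1 standard error from limma); blue marks the 7 downregulated and red the 2 upregulated DEGs, and grey the 28 others. Most points lie left of 0 from GPI to BSG, and the points to the right of 0 with the largest values are HK2, PPP1R3C, PPP1R3A and PGM1.

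Of the glucose transporters in the list, SLC2A4 and SLC2A3 were measured, and SLC2A1, the gene of GLUT1, was not analysed here. SLC2A4, the gene of the insulin-responsive transporter GLUT4 (chromosome 12, 52628450 to 52634967), had 98.2, 102 and 91.0 FPKM in sham replicates 1 to 3 and 61.2, 83.4 and 75.6 FPKM in DAC replicates 4 to 6. All DAC samples were below all sham samples, and replicate 4 was the lowest. The mean fell from 96.9 ± 5.43 to 73.4 ± 11.2 FPKM (SD, n = 3 per group), a difference of -0.41 with a standard error of 0.14 (limma adjusted P = 0.532). Without sham replicate 1 or 2 the difference was -0.40 or -0.37 and the gene was no longer a DEG (limma adjusted P = 0.896 and 0.555).

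SLC2A3 encodes GLUT3, a transporter of high affinity best known from neurons, and its entry on chromosome 5 (62963643 to 63041740) carries no symbol in the table. It had 70.4, 62.6 and 57.1 FPKM in the sham and 63.9, 68.7 and 71.4 FPKM in the DAC group, so the groups overlapped (difference 0.10, standard error 0.11, limma adjusted P = 0.810). The share of SLC2A3 in the sum of both was 41.8%, 38.1% and 38.6% in the sham and 51.1%, 45.2% and 48.6% in the DAC group. These shares, 39.5% ± 1.98 and 48.3% ± 2.97 (SD, n = 3), did not overlap, and no test was made of them. How reads shared between related genes were assigned is not given in the sources used here.

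**Figure D2:**
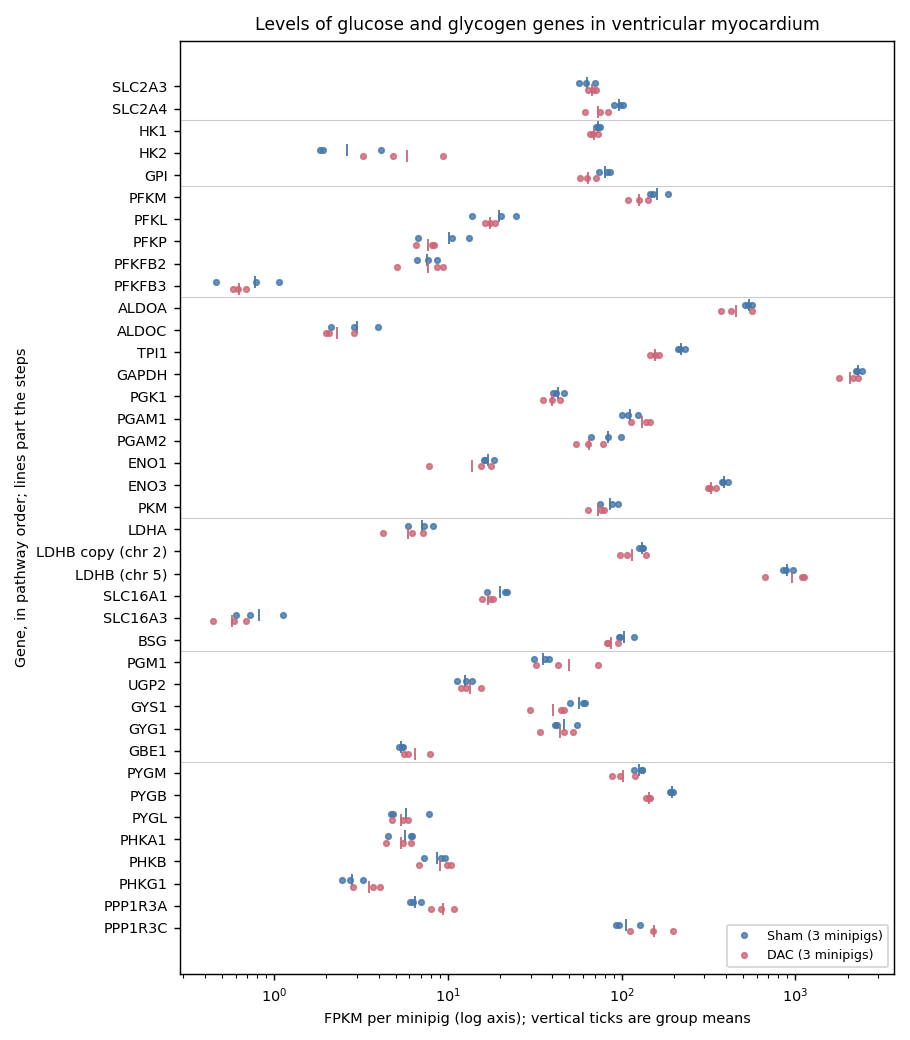
FPKM in each minipig (points, log axis) with group means (vertical ticks) for the 39 entries in pathway order, sham in blue and DAC in red. Levels run from under 1 FPKM for PFKFB3 and SLC16A3 in most samples to about 2000 FPKM for GAPDH, and within each isoform family 1 or 2 genes hold most of the summed FPKM.

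For hexose phosphorylation and isomerisation, HK1, HK2 and GPI were measured, and HK1, the hexokinase of most tissues, was the higher of both hexokinases in every sample. HK1 had 73.0, 71.6 and 75.5 FPKM in the sham and 73.4, 66.0 and 68.8 FPKM in the DAC group, and the groups overlapped (difference -0.080, standard error 0.095, limma adjusted P = 0.829). HK2, the insulin-regulated hexokinase of muscle (chromosome 3, 68145890 to 68231615), was far lower, with 1.92, 4.11 and 1.85 FPKM in sham and 4.85, 3.25 and 9.42 FPKM in DAC minipigs. Sham replicate 2 lay above DAC replicate 5, so the groups overlapped. The mean rose from 2.63 ± 1.28 to 5.84 ± 3.20 FPKM (difference 0.87, standard error 0.36, limma adjusted P = 0.585), and the share of HK2 in the sum of both hexokinases was 3.46% ± 1.71 and 7.64% ± 3.89 (SD, n = 3). The call was lost without sham replicate 1 or 3 or DAC replicate 4 or 6, with differences of 0.74, 0.72, 0.93 and 0.51 (limma adjusted P between 0.616 and 0.902).

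GPI converts glucose 6-phosphate to fructose 6-phosphate (chromosome 6, 43933759 to 44069330). Its levels were 82.9, 85.4 and 74.0 FPKM in the sham and 57.5, 63.6 and 71.1 FPKM in the DAC group, with every DAC sample below every sham sample. The mean fell from 80.8 ± 5.97 to 64.1 ± 6.82 FPKM (difference -0.33, standard error 0.12, limma adjusted P = 0.553). Leaving out sham replicate 1 or 2 or DAC replicate 4 or 5 gave differences of -0.31, -0.29, -0.26 and -0.33 that were not called (limma adjusted P between 0.572 and 0.896). The entry spans 135572 bases and also covers GARRE1, which was listed separately at 7.74 to 12.7 FPKM.

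At the phosphofructokinase step, which commits the sugar to glycolysis, the muscle isoform prevailed. PFKM (chromosome 5, 78475540 to 78526995) held 84.5% ± 2.95 of the summed FPKM of the 3 isoforms in sham and 83.3% ± 1.07 in DAC minipigs (SD, n = 3). It had 185, 145 and 152 FPKM in the sham and 109, 141 and 127 FPKM in the DAC group. The groups did not overlap, though sham replicate 2 and DAC replicate 5 lay close to each other. The mean fell from 161 ± 21.2 to 126 ± 15.9 FPKM (difference -0.35, standard error 0.14, limma adjusted P = 0.584).

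PFKM passed the test under 7 of 16 alternatives. Without sham replicate 1 or 3 or DAC replicate 4 or 6 its difference was -0.25, -0.39, -0.25 and -0.36 and it was not called (limma adjusted P between 0.566 and 0.909), and it was also lost after median scaling and quantile normalization and without the mitochondrially encoded genes (differences -0.33, -0.27 and -0.31). The liver isoform PFKL had 13.7 to 24.8 FPKM in the sham and 16.4 to 18.6 FPKM in the DAC group, and the platelet isoform PFKP had 6.72 to 13.2 and 6.57 to 8.31 FPKM. Neither passed the test with all samples, with differences of -0.13 and -0.32 (limma adjusted P = 0.881 and 0.706), while without sham replicate 2, the lowest of its group for both, the differences were -0.35 and -0.57 and both were DEGs (limma adjusted P = 0.524 and 0.465). PFKFB2, the cardiac form of the enzyme that makes and removes the activator fructose 2,6-bisphosphate, had a difference of -0.024 (limma adjusted P = 0.981), and PFKFB3, its inducible relative, had at most 1.07 FPKM and was not tested.

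From aldolase to pyruvate kinase, 10 genes were tested, and 9 had a lower mean in DAC, beside 53.4% of all genes, with a median difference of -0.25. TPI1 and ENO3 were downregulated DEGs (20%, beside 5.27% of all genes). TPI1, which interconverts the triose phosphates made by aldolase (chromosome 5, 63837506 to 63843137), had 216, 211 and 232 FPKM in the sham and 146, 156 and 164 FPKM in the DAC group. A wide gap separated the groups, with small spread within each. The mean fell from 220 ± 10.8 to 156 ± 9.15 FPKM (difference -0.50, standard error 0.10, limma adjusted P = 0.379). Over the alternatives on the log2 scale the difference lay between -0.54 and -0.41.

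ENO3, the muscle enolase (chromosome 12, 51954614 to 51963223), had 409, 380 and 384 FPKM in the sham and 316, 349 and 321 FPKM in the DAC group, again without overlap. Its mean fell from 391 ± 15.5 to 329 ± 17.7 FPKM (difference -0.25, standard error 0.097, limma adjusted P = 0.581). This call was among the least stable: leaving out any sample but DAC replicate 5 gave differences of -0.27 to -0.22 that were not called (limma adjusted P between 0.558 and 0.902). It was also lost after median scaling, after quantile normalization and without the mitochondrially encoded genes, with differences of -0.23, -0.13 and -0.21. ENO3 held 95.8% ± 0.369 of the summed enolase FPKM in sham and 96.0% ± 1.44 in DAC minipigs (SD, n = 3), the rest being the ubiquitous ENO1 at 16.2 to 18.5 and 7.79 to 17.8 FPKM (difference -0.37, standard error 0.27, limma adjusted P = 0.716).

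GAPDH, which oxidises glyceraldehyde 3-phosphate, was the most abundant of all these genes and ranked 13 of the whole table by its sham mean. It had 2272, 2420 and 2231 FPKM in the sham and 1776, 2311 and 2137 FPKM in the DAC group, and DAC replicate 5 lay within the sham range (difference -0.16, standard error 0.13, limma adjusted P = 0.729). After quantile normalization it was a DEG with a difference of -0.34 (limma adjusted P = 0.537). PGK1, which makes the first ATP of the pathway, had 35.1 to 46.8 FPKM over both groups (difference -0.11, limma adjusted P = 0.808), and PKM, the muscle pyruvate kinase gene, had 74.8 to 95.8 FPKM in sham and 64.4 to 79.7 FPKM in DAC minipigs (difference -0.22, standard error 0.14, limma adjusted P = 0.663).

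PGAM1, the phosphoglycerate mutase of most tissues, was the only gene of this stretch with a higher mean in DAC, at 100, 109 and 125 FPKM in the sham and 113, 145 and 137 FPKM in the DAC group. The groups overlapped (difference 0.24, standard error 0.14, limma adjusted P = 0.651). Without DAC replicate 4 and after quantile normalization it was a DEG, with differences of 0.35 and 0.34 (limma adjusted P = 0.633 and 0.589). The muscle mutase PGAM2 had 83.1, 99.5 and 66.8 FPKM against 54.3, 77.8 and 63.8 FPKM, which also overlapped (difference -0.34, standard error 0.19, limma adjusted P = 0.645). Without sham replicate 3 or DAC replicate 5 its difference was -0.49 or -0.47 and it was a DEG (limma adjusted P = 0.841 and 0.567). The share of PGAM1 in the sum of both was 57.3% ± 6.83 in the sham and 66.9% ± 1.67 in the DAC group, and sham replicate 3 and DAC replicate 5 both had 65.1%.

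ALDOA, the muscle aldolase that splits fructose 1,6-bisphosphate, had 537, 565 and 512 FPKM in the sham and 375, 564 and 425 FPKM in the DAC group. DAC replicate 5 was as high as the sham samples, and the groups overlapped (difference -0.26, standard error 0.16, limma adjusted P = 0.662). Without DAC replicate 5 the difference was -0.43 and ALDOA was a DEG (limma adjusted P = 0.494). A gene without a symbol, ENSSSCG00000046707, shares 25377 bases of the same strand with ALDOA. Its levels were 265, 264 and 262 FPKM in the sham and 178, 201 and 176 FPKM in the DAC group, so the means were 264 ± 1.64 and 185 ± 13.9 FPKM without overlap (difference -0.51, standard error 0.099, limma adjusted P = 0.379). Summed, both gave 803, 830 and 774 FPKM against 553, 765 and 602 FPKM (difference -0.34, standard error 0.14, limma adjusted P = 0.583). How reads were split between these overlapping genes is not given in the sources used here, and the sum was formed after the values were seen.

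ALDOC, the brain-type aldolase, was low, with means of 2.99 and 2.31 FPKM (difference -0.25, limma adjusted P = 0.725). It overlaps PIGS on the same strand, which had 3.60 FPKM in sham replicate 1 and 0.182 to 0.669 FPKM in the 5 others.

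**Figure D3:**
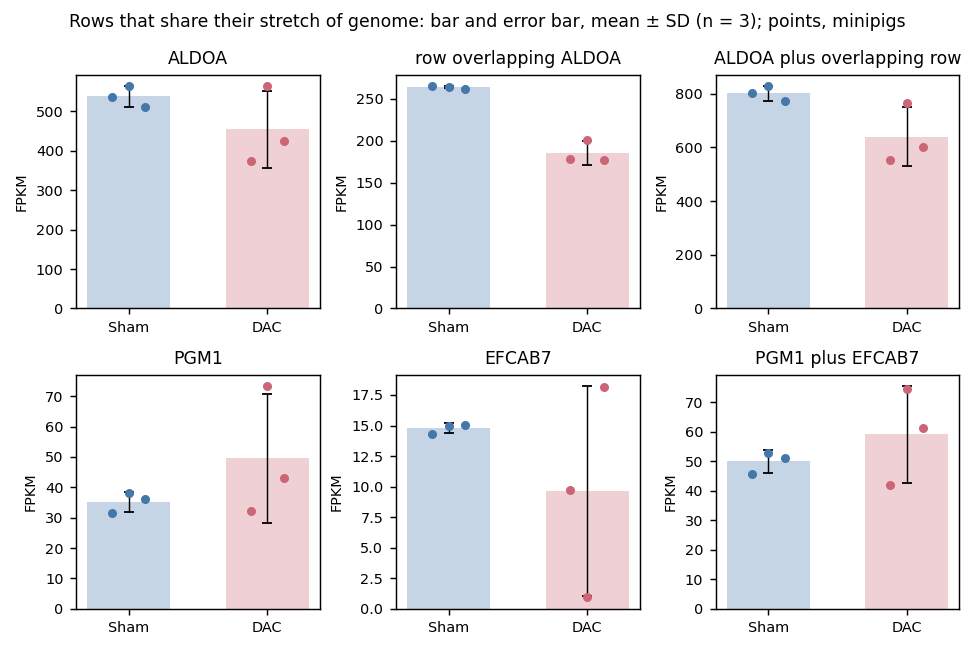
FPKM of ALDOA and PGM1, of the entry that overlaps each of them, and of their sums, by group (bars and error bars, mean ± SD, n = 3; points, minipigs; axes start at 0). The entry overlapping ALDOA and the sum with it separate the groups, ALDOA alone does not, and in the lower panels PGM1 is highest where EFCAB7 is lowest, in DAC replicate 5.

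Lactate dehydrogenase transcripts were almost all of the heart type, LDHB, which favours the oxidation of lactate to pyruvate. The entry at the LDHB gene on chromosome 5 (51810943 to 51831217), which has no symbol in the table, had 887, 965 and 851 FPKM in the sham and 1099, 669 and 1115 FPKM in the DAC group. DAC replicate 5 was the lowest of all 6 samples and the other DAC samples were the highest, so the means of 901 ± 58.1 and 961 ± 253 FPKM did not differ beyond their spread (difference 0.057, standard error 0.21, limma adjusted P = 0.951). Without DAC replicate 5 the difference was 0.30 and the entry was an upregulated DEG (limma adjusted P = 0.565).

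The entry that the table names LDHB lies elsewhere, on chromosome 2 (12988708 to 12990067), and spans only 1360 bases. RefSeq places a gene named LDHB there (12988754 to 12990033) and also lists an overlapping pseudogene, LOC407246. The chromosome 2 entry had 131, 134 and 126 FPKM against 138, 98.3 and 108 FPKM (difference -0.20, standard error 0.14, limma adjusted P = 0.710). Without DAC replicate 4 the difference was -0.34 and it was a DEG (limma adjusted P = 0.604). It too was lowest in DAC replicate 5, and how reads shared between both LDHB entries were assigned is not given in the sources used here. LDHA, the muscle-type subunit that favours lactate formation, had only 5.90 to 8.18 FPKM in the sham and 4.23 to 7.21 FPKM in the DAC group (difference -0.26, limma adjusted P = 0.723).

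No gene of the lactate step passed the test with all samples. SLC16A1, which encodes the lactate carrier MCT1, had 16.8 to 22.0 FPKM in sham and 15.8 to 18.1 FPKM in DAC minipigs (difference -0.21, limma adjusted P = 0.676). Without sham replicate 2 the difference was -0.33 and it was a DEG (limma adjusted P = 0.509). SLC16A3, the carrier MCT4 of glycolytic tissues, had at most 1.13 FPKM and was not tested. BSG encodes basigin, the chaperone that brings these carriers to the membrane, and its entry on chromosome 2 (77735584 to 77743403) also lacks a symbol. Its levels were 96.5, 97.7 and 117 FPKM in the sham and 82.5, 84.1 and 95.8 FPKM in the DAC group, all DAC samples being below all sham samples by a small margin (difference -0.24, standard error 0.12, limma adjusted P = 0.617).

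**Figure D4:**
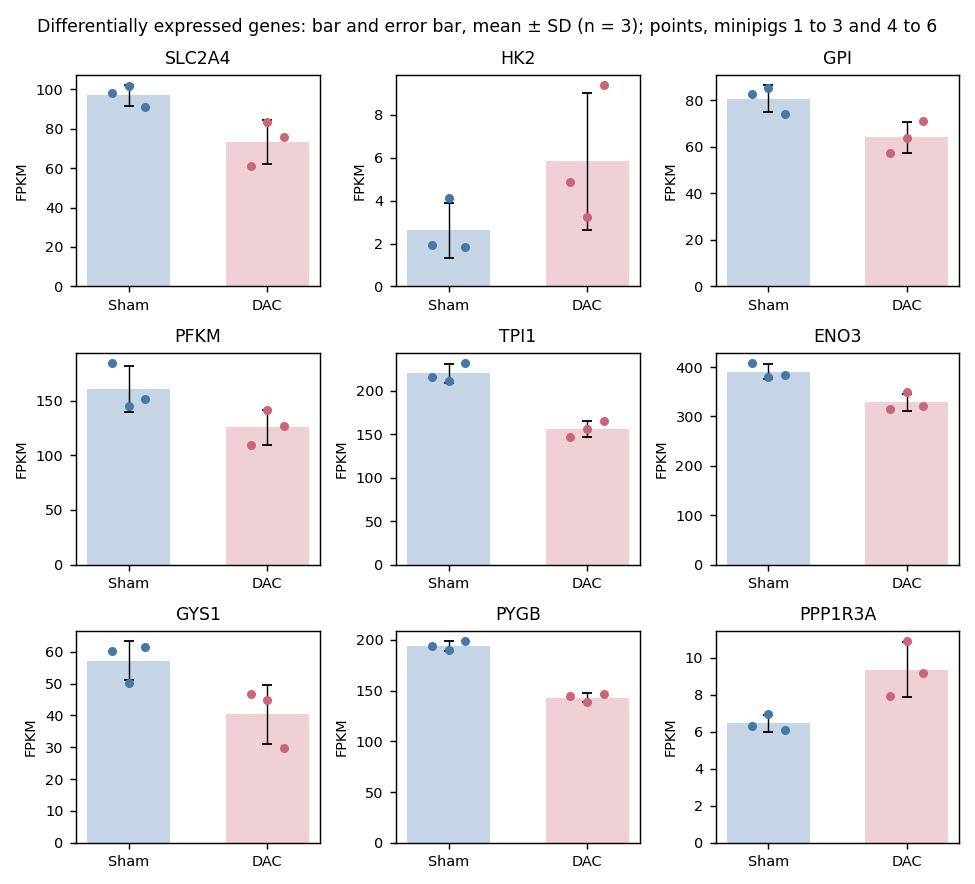
FPKM of the 9 DEGs (bars and error bars, mean ± SD, n = 3; points, minipigs in the order of their replicate numbers; axes start at 0). The groups are apart for all of them except HK2, where sham replicate 2 lies above DAC replicate 5, and the spread is smallest relative to the difference for PYGB and TPI1.

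On the way to glycogen, 1 of 5 genes was a DEG, downregulated (20%, beside 5.27% of all genes). GYS1, the muscle glycogen synthase that extends the chains from UDP-glucose (chromosome 6, 54233050 to 54250261), had 60.2, 50.2 and 61.3 FPKM in the sham and 46.6, 44.8 and 29.8 FPKM in the DAC group. The groups did not overlap, and DAC replicate 6 was the lowest by far. The mean fell from 57.2 ± 6.13 to 40.4 ± 9.24 FPKM (difference -0.51, standard error 0.19, limma adjusted P = 0.554). Without sham replicate 1 or 3 or DAC replicate 6 the difference was -0.47, -0.46 and -0.31 and GYS1 was not called (limma adjusted P between 0.553 and 0.896). It passed under 11 of 16 alternatives, and was also lost with each gene's own variance, on the log2 and on the FPKM scale.

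The other genes of glycogen synthesis did not pass it. PGM1, which turns glucose 6-phosphate into glucose 1-phosphate, had 31.4, 38.0 and 36.1 FPKM in the sham and 32.1, 73.4 and 43.1 FPKM in the DAC group (difference 0.40, standard error 0.28, limma adjusted P = 0.704). Without DAC replicate 4 the difference was 0.67 and PGM1 was a DEG (limma adjusted P = 0.633). Its entry shares 74558 bases of the same strand with EFCAB7, which had 14.3 to 15.1 FPKM in sham minipigs and 9.75, 0.993 and 18.2 FPKM in DAC minipigs. In replicate 5 the high PGM1 thus met a nearly absent EFCAB7, and the sum of both gave a difference of 0.20 (standard error 0.21, limma adjusted P = 0.791).

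GBE1, the branching enzyme, had 5.49, 5.44 and 5.24 FPKM in the sham and 5.90, 7.88 and 5.58 FPKM in the DAC group. All DAC samples were above all sham samples, by a small margin (difference 0.21, standard error 0.14, limma adjusted P = 0.687). UGP2, which makes UDP-glucose, and GYG1, the protein primer of the granule, had differences of 0.074 and -0.073 (limma adjusted P = 0.890 and 0.931).

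Glycogen breakdown starts with phosphorylase, of which the heart expressed the brain and the muscle isoform. PYGB, the brain isoform (chromosome 17, 30940452 to 30995695), had 194, 190 and 199 FPKM in the sham and 144, 138 and 146 FPKM in the DAC group. The spread within the groups was small beside the gap between them. The mean fell from 194 ± 4.60 to 143 ± 4.13 FPKM (difference -0.44, standard error 0.091, limma adjusted P = 0.383), and the alternatives on the log2 scale gave differences between -0.48 and -0.33.

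PYGM, the muscle isoform, had 132, 117 and 130 FPKM in sham and 98.0, 120 and 87.6 FPKM in DAC minipigs. DAC replicate 5 lay above sham replicate 2, and the gene did not pass the test (126 ± 7.79 and 102 ± 16.5 FPKM, difference -0.32, standard error 0.14, limma adjusted P = 0.592). Without DAC replicate 5 the difference was -0.44 and on the TPM scale it was -0.36, and PYGM was a DEG in both (limma adjusted P = 0.494 and 0.541). PYGB held 59.5% ± 1.13 of the summed phosphorylase FPKM in the sham and 57.3% ± 4.48 in the DAC group, PYGM held 38.7% ± 1.11 and 40.5% ± 4.47 (SD, n = 3), and both sets of shares overlapped. The liver isoform PYGL was at 4.69 to 7.76 FPKM over all samples (difference -0.051).

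Phosphorylase kinase, which switches phosphorylase on when calcium rises, was represented by PHKA1 and PHKB, regulatory subunits, and PHKG1, the catalytic subunit of muscle. Their differences were -0.055, 0.041 and 0.24, and none passed the test with all samples. PHKG1 had 2.46 to 3.26 FPKM in sham and 2.83 to 4.04 FPKM in DAC minipigs (limma adjusted P = 0.660), and without DAC replicate 4 its difference was 0.36 and it was a DEG (limma adjusted P = 0.658).

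The list held 2 of the scaffolds that bring protein phosphatase 1 to the glycogen granule, where it activates the synthase and switches phosphorylase off, and both had higher means in DAC, while the 5 other scaffolds measured (PPP1R3B, PPP1R3D, PPP1R3E, PPP1R3F and PPP1R3G) had lower ones. PPP1R3A, the scaffold of striated muscle (chromosome 18, 31997713 to 32039853), had 6.32, 6.97 and 6.09 FPKM in the sham and 7.95, 10.9 and 9.19 FPKM in the DAC group. Every DAC sample lay above every sham sample. The mean rose from 6.46 ± 0.458 to 9.35 ± 1.49 FPKM (difference 0.46, standard error 0.13, limma adjusted P = 0.50), and the alternatives on the log2 scale gave differences between 0.36 and 0.56.

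PPP1R3C, the broadly expressed scaffold known as PTG, was the more abundant one, with 96.5, 128 and 92.7 FPKM in the sham and 152, 112 and 197 FPKM in the DAC group. DAC replicate 5 lay below sham replicate 2, and the gene did not pass the test (106 ± 19.3 and 154 ± 42.9 FPKM, difference 0.51, standard error 0.22, limma adjusted P = 0.592). It did so without sham replicate 2 or DAC replicate 5 (differences 0.66 and 0.72, limma adjusted P = 0.509 and 0.494). It also passed after median scaling (0.54), after quantile normalization (0.59) and without the mitochondrially encoded genes (0.56), with limma adjusted P between 0.59 and 0.60.

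Minipigs of the DAC group did not share the lower levels equally. Over the 37 tested entries, the median of log2(FPKM + 1) minus the sham mean of the gene was -0.29 in DAC replicate 4, -0.10 in replicate 5 and -0.023 in replicate 6, beside -0.023 to 0.042 in the sham samples and -0.039 to 0.011 over all genes in any sample. DAC replicate 4 was the lowest of the 6 samples for 17 of the 37, replicate 5 for 7 and replicate 6 for 2. Sham replicate 3 was the highest for 13. These counts were made for the tested entries alone, with no count over all genes beside them. Sham medians lie near 0 in part because each gene is set against the mean of those same samples. The 39 entries together made up 2.06% to 2.17% of all FPKM in the sham and 1.84% to 1.99% in the DAC group. All FPKM here include the mitochondrially encoded genes, whose share was higher in DAC minipigs, and no share without them was formed. GAPDH and the LDHB entry on chromosome 5, the most abundant entries, were not DEGs. Leaving out DAC replicate 4 kept 4 of the 7 downregulated DEGs found by symbol (SLC2A4, TPI1, GYS1 and PYGB). Leaving out sham replicate 1 kept 2 (TPI1 and PYGB). Over all genes, these fits gave 515 and 359 downregulated DEGs, in place of 581.

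**Figure D5:**
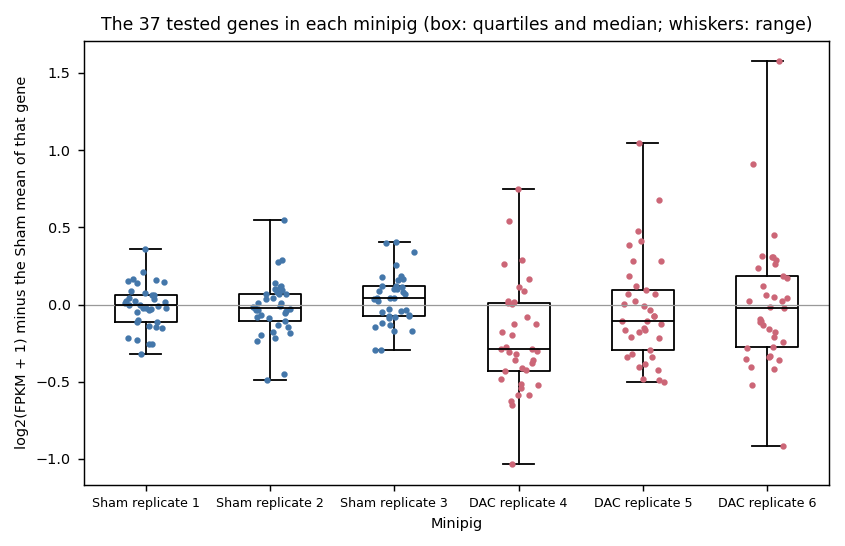
Difference between log2(FPKM + 1) in each minipig and the sham mean of the same gene, for the 37 tested entries (points), with boxes for median and quartiles and whiskers over the range. The median of DAC replicate 4 (-0.29) lies lowest and that of DAC replicate 6 (-0.023) lies beside the lowest sham median.

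Genes that stand around this route were examined from 4 further lists. Of 28 other genes of glycolysis and glucose uptake, 14 were tested. Of these, 2 were downregulated (14.3%, beside 5.27% of all genes) and 1 upregulated (7.14%, beside 3.25%). GPD1, which diverts dihydroxyacetone phosphate to glycerol 3-phosphate, fell from 9.03 to 5.15 FPKM, with 10.2, 6.31 and 10.6 FPKM in the sham and 4.65, 5.77 and 5.03 FPKM in the DAC group (difference -0.68, standard error 0.19, limma adjusted P = 0.50). SLC2A11, a lesser-known member of the transporter family, fell from 3.85 to 3.02 FPKM (difference -0.27, limma adjusted P = 0.584). FBP1, a fructose bisphosphatase that works against phosphofructokinase, rose from 1.65 to 2.83 FPKM with overlapping groups (difference 0.58, limma adjusted P = 0.584).

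Of 21 other genes of glycogen metabolism, 15 were tested, and 13 had a lower mean in DAC, beside 53.4% of all genes. Only 1 was a DEG, downregulated (6.67%, beside 5.27% of all genes). PPP1R3G, another glycogen scaffold of protein phosphatase 1, had 21.4, 14.1 and 18.8 FPKM in the sham and 12.3, 9.35 and 10.9 FPKM in the DAC group. The groups did not overlap, and the mean fell from 18.1 to 10.9 FPKM (difference -0.68, standard error 0.17, limma adjusted P = 0.482), the opposite direction to PPP1R3A.

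Of 16 genes of the pentose phosphate, hexosamine and polyol branches, 14 were tested. RPIA, the ribose 5-phosphate isomerase of the pentose phosphate pathway, fell from 34.6 to 28.3 FPKM without overlap between the groups (difference -0.28, limma adjusted P = 0.553).

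Among 23 regulators of uptake and glycolysis, 21 were tested, with 2 upregulated (9.52%, beside 3.25% of all genes) and 1 downregulated (4.76%, beside 5.27%). TXNIP, an arrestin-like protein that is induced by glucose and restrains its uptake, had 418, 392 and 401 FPKM in the sham and 320, 349 and 308 FPKM in the DAC group, without overlap. Its mean fell from 404 to 326 FPKM (difference -0.31, standard error 0.099, limma adjusted P = 0.522). MEF2A, a transcription factor that binds the SLC2A4 promoter, rose from 29.8 to 36.8 FPKM without overlap (difference 0.29, limma adjusted P = 0.563). PPARGC1A, the coactivator PGC-1α of mitochondrial genes, rose from 23.4 to 35.4 FPKM with overlap (difference 0.54, limma adjusted P = 0.584).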

How the data were processed

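Total RNA of ventricular myocardium from 3 sham and 3 DAC minipigs was prepared with the NEBNext Ultra kit, which does not mark strand, and read from both ends on a HiSeq instrument. The authors deposited FPKM, with 1 column per minipig and no pooling. The submitters' processing notes name HISAT2 and the build susScr11, and the program that made the FPKM is not given in the sources used here. FPKM holds no read numbers, so the depth is unknown, and precision rests on the spread between minipigs. Every listed gene had at least 0.500 FPKM in its highest sample. Of the 39 entries, 17 overlap another listed gene, on either strand. On the opposite strand, ENO3 shares 1528 bases with PFN1 (61.8 to 80.9 FPKM) and PFKM 891 with ASB8 (15.81 to 23.35 FPKM). PFKP likewise shares 27295 bases with PITRM1 (8.19 to 10.6 FPKM). The part of such overlaps in the values was not tested.

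Entries were matched by symbol, by gene identifier, or by a position within 2000 bases of the RefSeq gene at both ends (Sscrofa11.1, same coordinates: 99.95% of shared symbols overlapped). Values were taken as log2 after adding a pseudocount of 1 to FPKM, and compared with limma 3.58.1 in R 4.3.3 (moderated test, variance trend), over genes that reached 1 FPKM in 3 or more of 6 samples, with Benjamini-Hochberg adjustment over all genes tested. The P threshold of 0.05 is that of the study. An exact permutation test of 3 against 3 cannot go below 0.10 (two-sided). In simulated data with 11029 genes, 200 of them changed, the test called 191 at a log2 change of 1 and 161 at 0.5, along with 5.08% and 5.06% of the unchanged genes. The changed genes were drawn only from those above a low mean level, so these numbers do not cover genes of the lowest levels or smaller changes. Each gene was drawn on its own, without a shift shared by the genes of a sample. The rate of unchanged genes called therefore need not hold for these data. Plots were drawn in matplotlib 3.10.9 under Python 3.11.15.

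The members, the further lists and the markers were chosen with earlier results of these data known. All 41 members are named. Values in every sample are given for DEGs, for members whose groups do not overlap and for the most abundant member of each step, and a few members were added after their values were seen (HK1, SLC2A3, PGAM1, PGAM2, PGM1, PYGM, PPP1R3C, ALDOA and the LDHB copy). From the further lists only DEGs are named, and some results of these lists are not reported here. Alternatives were no filter or 5 FPKM, median, quantile and TPM scaling, mitochondrially encoded genes left out, a pseudocount of 0.1, each gene's own variance (log2 or FPKM scale), sample weights and each sample left out. Matching beyond the symbol and sums of overlapping entries were added after seeing the data. Promoter motifs and sequences were not analysed here.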

Additional observations from a re-analysis of the deposited data

How the results depend on the processing

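Of 592 comparisons of a single tested entry with an alternative, 512 kept the direction and the side of the threshold, 35 lost the call, 23 gained it and 22 changed sign. The median difference over the genes found by symbol kept its sign throughout, with a range of -0.19 to -0.11 over the samples left out. No paired analysis was possible because the groups are different minipigs, which the methods describe as assigned at random. The depth behind the values is unknown, so no limit from it is given.

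With at least 5 FPKM, 579 genes were DEGs in place of 939, 71.5% of them downregulated in place of 61.9%, and 1 upregulated DEG was left among the genes found by symbol. That number was also 1 with each column scaled to one common sum (TPM), with each gene's own variance, and on FPKM without the log, and HK2 was the upregulated gene lost. With each gene's own variance and on FPKM without the log, the downregulated DEGs found by symbol were 5 in place of 7, PFKM and GYS1 being lost. Over all genes, 531 and 528 were downregulated in place of 581. Upregulated were 165 with at least 5 FPKM, 233 on the TPM scale, 358 with each gene's own variance and 349 without the log. Leaving out each sample in turn gave 600 to 1029 DEGs over all genes, fewest without sham replicate 1, and 50.8% of them were downregulated without DAC replicate 5. Among the genes found by symbol it gave 1 to 3 upregulated DEGs (1 without sham replicate 1 or 3 or DAC replicate 6) and 2 to 9 downregulated ones (2 without sham replicate 1, 4 without DAC replicate 6, 9 without DAC replicate 5). Without sham replicate 3 or DAC replicate 6, 1 gene of the whole table had an adjusted P under 0.05.

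None of the entries whose sign changed was a DEG, and the cause was not tested. PFKFB2 became positive after quantile normalization (0.0079), without the mitochondrially encoded genes (0.015), with sample weights (0.032) and on FPKM without the log (0.042 FPKM). The LDHB entry on chromosome 5 became -0.0096 after quantile normalization, and the copy on chromosome 2 became 0.029 when both were summed. With single samples left out, the differences ranged from -0.35 to 0.055 for PFKL, -0.17 to 0.21 for PFKFB2, -0.069 to 0.30 for LDHB on chromosome 5, -0.029 to 0.15 for UGP2, -0.20 to 0.11 for GYG1, -0.16 to 0.15 for PYGL, -0.18 to 0.056 for PHKA1 and -0.067 to 0.21 for PHKB.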
